A study of Homo sapiens with 12 samples.

Results

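Matrix glycoproteins, proteoglycans and elastic-fibre proteins were followed as a list of 40 genes, matched by symbol to the Ensembl gene identifiers of the count table, 1 identifier per gene. The list holds 16 genes of elastic fibres and microfibrils, 10 genes of fibronectin and the matricellular glycoproteins, 8 proteoglycan genes and 6 basement membrane genes. Of the 40 genes, 38 had more than 1 CPM (counts scaled to the library total) in at least 3 libraries and were tested, among 13236 genes tested of 60671 in the table. The 2 that were not tested were FBN2 (fibrillin 2) and FNDC1 (a fibronectin type III domain protein).

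Fibroblasts secrete the fibrillar matrix of connective tissue. Fibrillins form microfibrils on which fibulins, latent TGF-beta binding proteins (LTBPs) and microfibril-associated proteins assemble, and elastin is laid down on that scaffold. Small leucine-rich proteoglycans bind collagen fibrils and set their spacing, versican binds hyaluronan, and laminins and nidogens build basement membranes. Matricellular glycoproteins such as thrombospondins, SPARC, tenascins and periostin modify how cells attach to this matrix.

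The study asked how loss of LEO1, a subunit of the PAF1 complex that travels with RNA polymerase II, alters gene expression when human fibroblasts stop dividing. Poly(A) RNA was sequenced from BJ-5ta cells, a telomerase-immortalized human fibroblast line, that were unmodified (wild type) or carried a CRISPR/Cas9 knockout of LEO1 (ΔLEO1). Each genotype was grown in medium with 10% serum (serum-fed) or kept for 10 days in 0.1% serum (serum-starved), which brings the cells to quiescence. The 4 groups had 3 libraries each: wild type in 10% serum (libraries 1 to 3), ΔLEO1 in 10% serum (4 to 6), wild type in 0.1% serum (7 to 9) and ΔLEO1 in 0.1% serum (10 to 12). All ΔLEO1 libraries came from 1 clone, so genotype and clone cannot be told apart. The labels do not say whether the libraries of a group were separate cultures. The p-values therefore measure the spread between these libraries, pooled over genes, which may be technical. In the main test the typical gene took this pooled spread. Its own spread between libraries hardly entered its p-value, so a gene with 1 outlying library can still be called.

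Gene counts per library ran from 26240632 to 45315560, and the added ERCC spike-in transcripts took 0.625% to 3.24% of all counts. LEO1 itself stood at 20.4 to 30.4 CPM in the wild-type libraries and at 0.661 to 1.44 CPM in the ΔLEO1 libraries. All 8 fibroblast markers checked (VIM, PDGFRA, PDGFRB, COL1A1, COL1A2, THY1, FAP and S100A4) exceeded 1 CPM. The 4 endothelial markers summed to less than 1 CPM in every library, and ADIPOQ and LPL (adipocytes) and COL9A1 (cartilage) had 0 counts. Smooth muscle markers, mostly ACTA2, summed to 403 to 897 CPM in serum-fed wild-type cells, 137 to 172 CPM in 0.1% serum, and 953 to 2819 and 575 to 763 CPM in ΔLEO1 cells. The highest-numbered library of each group (3, 6, 9 and 12) stood apart from the other pair. Among the 38 tested genes it lay more than 1.5-fold from the mean of that pair in 15 genes for library 3, 4 for library 9, 9 for library 6 and 12 for library 12, on the CPM scale with TMM factors. The pair itself differed by as much in 0 to 2 genes. The 5 epithelial markers, nearly all KRT8, summed to 53.8 to 80 CPM in wild-type and 24.1 to 40.3 CPM in ΔLEO1 libraries. CDH1 alone went the other way, from 0 to 0.332 CPM in wild-type and from 0.259 to 1.42 CPM in ΔLEO1 libraries. The 3 immune markers (PTPRC, CD68 and CD14) summed to 2.01 to 2.96 CPM in wild-type and 3.08 to 9.01 CPM in ΔLEO1 libraries. PTPRC alone ran from 0.204 to 0.627 CPM in wild-type and from 1.37 to 7.1 CPM in ΔLEO1 libraries. The part of the smooth muscle, epithelial and immune markers in the genotype differences was not tested. Results that rest on the highest-numbered libraries are given with and without them.

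Values are given on 2 scales. The ERCC-scaled counts of a gene are its CPM taken over the spike-in counts instead of the gene counts, which compares the amount of its RNA per amount of added spike-in. TMM CPM compares a gene with the other genes of its library. On the ERCC scale the median log2 fold change of all genes tested was −0.97 (wild type) and −1.05 (ΔLEO1) for 0.1% against 10% serum. It was 0.35 (10% serum) and 0.27 (0.1% serum) for ΔLEO1 against wild type. With TMM these medians lay between 0.00 and 0.02. Because bulk RNA was measured, fewer cells, less RNA per cell and a different RNA input per spike-in cannot be told apart. The spike-in share was 1.88%, 3.24% and 1.09% in libraries 10, 11 and 12. On the ERCC scale such differences move all genes of a library together. Tests are edgeR quasi-likelihood F tests on the ERCC scale unless TMM is named, with p-values adjusted over all 13236 genes by the Benjamini-Hochberg method and genes called at an adjusted p under 0.05.

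In wild-type cells, 0.1% serum raised the RNA of 3 of the 38 matrix genes and lowered that of 12. OGN (osteoglycin), VCAN (versican) and LTBP4 were higher, and the lower ones were led by MGP (matrix Gla protein, an inhibitor of calcification), ASPN (asporin), THBS1, MFAP5, THBS2 and NID2. Over all genes tested, 0.831% were called higher and 27.0% lower. The matrix genes had a median log2 fold change of −0.87, against −0.97 over all genes tested. With TMM, 14 matrix genes were higher and 10 lower, where 15.5% and 16.1% of all genes were called. By role, 2 of 8 proteoglycan genes were higher and 1 lower, 1 of 15 elastic-fibre genes higher and 3 lower, 5 of 9 fibronectin and matricellular genes lower, and 3 of 6 basement membrane genes lower.

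ΔLEO1 cells gave the same totals, 3 matrix genes higher and 12 lower in 0.1% serum, with 0.793% and 36.4% of all genes called. OGN, VCAN and COMP (cartilage oligomeric matrix protein) were higher, and the smallest adjusted p-values among the lower genes belonged to POSTN (periostin), NID2, FBN1, MGP, SPARC and LAMC1. The median was −0.57, against −1.05 over all genes tested. TMM called 16 matrix genes higher and 6 lower, with 15.5% and 12.1% of all genes called. Of the proteoglycan genes, 6 of 8 were higher on the TMM scale in ΔLEO1 cells and 5 of 8 in wild-type cells.

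**Figure D1:**
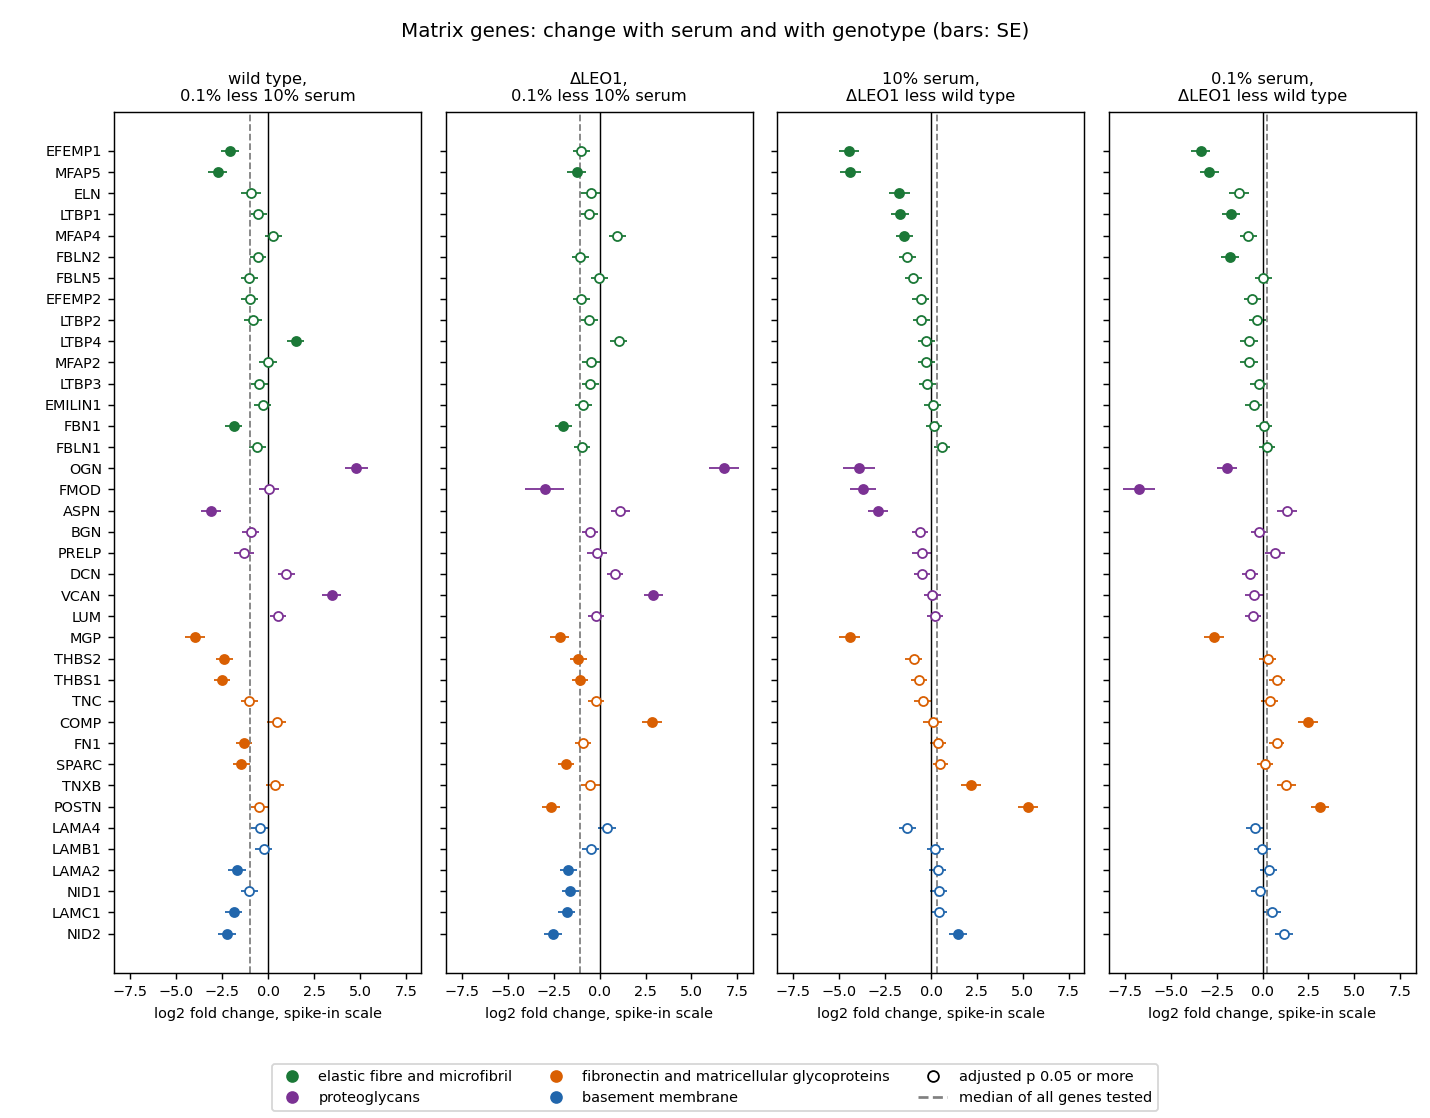
Log2 fold change (x axis, ERCC scale; bars are SE) of the 38 tested matrix genes (rows, coloured by role) in the 4 comparisons, with filled points for genes called at an adjusted p under 0.05 and a dashed line at the median of all genes tested. OGN and VCAN lie far to the right in both serum comparisons, and EFEMP1, MFAP5 and MGP far to the left in both genotype comparisons, where POSTN lies to the right.

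Versican, a large hyaluronan-binding proteoglycan, gained RNA in low serum in both genotypes. Wild-type libraries held 1615, 1193 and 110 ERCC-scaled counts when serum-fed and 11437, 12807 and 7812 when serum-starved. The ΔLEO1 libraries held 1656, 1036 and 358 and 5831, 3578 and 13594, in the same order. Every library in low serum lay above every library in 10% serum, and libraries 3 and 6 were the lowest. The low-serum log2 gain was 3.46 ± 0.53 (SE; adjusted p = 7.21e-09) in wild-type cells and 2.92 ± 0.51 (adjusted p = 1.77e-06) in ΔLEO1 cells, the latter 2.21 without library 12 and 1.81 without the highest-numbered libraries. On the TMM scale the gains were 24.5-fold and 16-fold, and the genotypes did not differ by the test in 10% serum (adjusted p = 0.951) or in 0.1% serum (adjusted p = 0.825). The VCAN promoter from RefSeq is shown because this gene had the highest called low-serum gain after OGN in both genotypes. The window runs from 250 bases before the annotated start to 50 bases after it on GRCh38.p14, and capitals mark a GC box (GGGCGG, here on the opposite strand).
VCAN promoter, chr5:83471494-83471793, plus strand: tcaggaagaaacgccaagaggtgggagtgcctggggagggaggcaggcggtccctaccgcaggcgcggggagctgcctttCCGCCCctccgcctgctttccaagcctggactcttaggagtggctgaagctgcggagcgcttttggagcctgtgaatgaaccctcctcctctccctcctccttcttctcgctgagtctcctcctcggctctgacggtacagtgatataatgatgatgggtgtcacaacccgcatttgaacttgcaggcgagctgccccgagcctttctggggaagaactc

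OGN and ASPN encode small leucine-rich proteoglycans and lie 51.5 kb apart on the minus strand of chromosome 9 (GRCh38), OGN at 92383967 to 92404696 and ASPN at 92456205 to 92482506. They are shown together because these neighbours went opposite ways with serum in wild-type cells. Capitals in the OGN window mark a TATA box motif (TATAAA, here on the opposite strand), and none of the motifs searched was found in the ASPN window. OGN has 2 windows. The one not shown, chr9:92404529-92404828, overlaps it and holds the same TATA box motif and a SMAD motif (CAGACA).
OGN promoter, chr9:92404650-92404949, minus strand: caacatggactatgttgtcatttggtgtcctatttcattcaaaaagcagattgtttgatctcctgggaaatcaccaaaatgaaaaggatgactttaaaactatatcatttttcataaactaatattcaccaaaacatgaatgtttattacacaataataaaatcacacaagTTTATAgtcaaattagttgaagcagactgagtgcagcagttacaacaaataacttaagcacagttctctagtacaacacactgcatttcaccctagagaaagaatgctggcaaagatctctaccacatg
ASPN promoter, chr9:92482457-92482756, minus strand: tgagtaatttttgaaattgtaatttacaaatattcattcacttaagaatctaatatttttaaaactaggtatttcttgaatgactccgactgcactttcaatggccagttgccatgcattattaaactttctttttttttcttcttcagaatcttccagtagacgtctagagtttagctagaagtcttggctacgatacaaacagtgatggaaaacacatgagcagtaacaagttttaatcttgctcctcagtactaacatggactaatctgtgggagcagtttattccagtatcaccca

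OGN was nearly undetected in 10% serum and present in every library in 0.1% serum. It passed the limit for testing through the 0.1% serum libraries alone, the highest library in 10% serum being at 0.867 TMM CPM. Its p-values take no account of this selection. The wild-type ERCC-scaled counts were 55.3, 88.5 and 1.77 in 10% serum, from 16, 33 and 1 counts, and 1245, 1556 and 1121 in 0.1% serum. In ΔLEO1 cells they were 4.08, 5.14 and 0 in 10% serum, from 1, 2 and 0 counts, and 389, 235 and 398 in 0.1% serum. The serum groups did not overlap in either genotype, and in 0.1% serum each ΔLEO1 library was below each wild-type library, while in 10% serum library 3 lay among the ΔLEO1 libraries. The log2 fold change in wild-type cells was 4.79 ± 0.63 (SE; adjusted p = 7.51e-12), and it was 5.66 without library 2 and 4.17 without library 3. In ΔLEO1 cells the ratio of the scaled totals was 110, with an exact 95% counting interval of 37.4 to 534 that rests on 3 counts in 10% serum (adjusted p = 9.47e-14). The fitted log2 value of this change was 6.77, and it was 7.57 without library 5 and 6.10 without library 6. Against serum-starved wild type the clone differed by −1.94 ± 0.54 (adjusted p = 0.00643), which lost its call without library 8 (adjusted p = 0.0524) and with DESeq2 on ERCC size factors (adjusted p = 0.259). In 10% serum the wild-type total exceeded the ΔLEO1 total by a ratio of 14.3 (4.63 to 71.9, adjusted p = 1.28e-04), with a fitted log2 value of −3.92. That value was −3.05 without library 2 (adjusted p = 0.0435), −4.55 without library 3, −4.73 without library 5 and −3.26 without library 6.

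Asporin, which binds collagen and TGF-beta, had a serum response that differed between the genotypes (interaction, given further on). Serum-fed wild-type libraries gave ERCC-scaled counts of 2531, 2121 and 524, and serum-starved ones 166, 156 and 276. For the clone the counts were 363, 190 and 145 (serum-fed) and 250, 158 and 1120 (serum-starved). On this scale the wild-type serum groups did not overlap, whereas in ΔLEO1 cells the serum groups overlapped and library 12 was far above the others. In TMM CPM the ΔLEO1 libraries had 2.35, 1.65 and 1.42 serum-fed and 4.85, 5.21 and 11.6 serum-starved, without overlap. The log2 fold change with low serum was −3.11 ± 0.56 (SE; adjusted p = 1.84e-06) in wild-type cells. In ΔLEO1 cells it was 1.13 ± 0.53 and did not pass the test (adjusted p = 0.0666), and it was −0.18 without library 12 and 1.57 without library 11 (adjusted p = 0.0267). In 10% serum the ΔLEO1 level was lower than the wild-type level by −2.90 ± 0.56 (adjusted p = 7.13e-06), and these groups did not overlap.

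DCN (decorin) and LUM (lumican), the abundant collagen-binding proteoglycans of fibroblasts, lie 28.7 kb apart on chromosome 12 and were called in low serum with TMM but not on the ERCC scale. DCN had 1626, 1692 and 951 TMM CPM in serum-fed wild-type cells and 6173, 5795 and 5608 in serum-starved ones. Its TMM CPM in ΔLEO1 cells were 965, 903 and 544 in 10% serum and 3701, 3565 and 2651 in 0.1% serum. The low-serum libraries were all above those in 10% serum, with a TMM log2 fold change of 2.04 in wild-type cells (adjusted p = 2.04e-04) and 2.04 in ΔLEO1 cells (adjusted p = 2.55e-04). On the ERCC scale the same gene changed by 1.00 ± 0.45 (SE; adjusted p = 0.0668) and 0.85 ± 0.44 (adjusted p = 0.0926), which did not pass the test. The wild-type change passed it at the same value without library 11 or 12 (adjusted p = 0.016 and 0.0178), which enter through the shared estimate of spread. LUM had 2437, 2390 and 1812 TMM CPM in serum-fed wild-type cells, and 6528, 6779 and 5623 in serum-starved ones. In ΔLEO1 cells LUM had 2181, 2224 and 1852 TMM CPM serum-fed, and 4685, 4285 and 3126 serum-starved. LUM was again higher in each low-serum library, by 1.51 (adjusted p = 1.37e-04) and 0.95 (adjusted p = 0.00243) on the TMM scale. Its ERCC-scale changes had adjusted p-values of 0.29 and 0.655.

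FMOD (fibromodulin), a collagen fibril regulator 124 kb from PRELP on chromosome 1, was close to absent in the ΔLEO1 clone. It passed the limit for testing through wild-type libraries alone, the highest ΔLEO1 library being at 0.163 TMM CPM. Its p-values take no account of this selection. Wild-type libraries had ERCC-scaled counts of 194, 118 and 51.4 when serum-fed and 127, 140 and 105 when serum-starved. In ΔLEO1 cells they were 0, 7.71 and 16.6 in 10% serum and 1.51, 0.921 and 0 in 0.1% serum. Each ΔLEO1 library was below each wild-type library at the same serum level. The ΔLEO1 cells in 0.1% serum held 2 counts in all against 246 in wild-type cells, a ratio of 128 after scaling (exact 95% counting interval 35.1 to 1063, adjusted p = 1.47e-12). Serum-fed, the genotypes differed by −3.69 ± 0.71 (SE; adjusted p = 7.62e-06), and by −4.64 without library 6. The drop within ΔLEO1 cells in low serum, from 10 counts to 2 in overlapping libraries, was called (adjusted p = 0.027) but not without library 5, 6, 10 or 11 (adjusted p up to 0.167), without the highest-numbered libraries (adjusted p = 0.167) or with TMM (adjusted p = 0.229). BGN (biglycan) and PRELP, the remaining proteoglycan genes, passed the test in no comparison on the ERCC scale. With TMM, BGN was lower in ΔLEO1 cells, by −0.94 in 10% serum (adjusted p = 1.41e-04) and by −0.39 in 0.1% serum (adjusted p = 0.0322).

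Taking all 8 proteoglycan genes as a sum, their share of a library's gene counts was 0.493% ± 0.0947 (SD, n = 3) in serum-fed wild-type cells and 1.43% ± 0.0928 in 0.1% serum. The shares in ΔLEO1 cells were 0.356% ± 0.0547 and 0.871% ± 0.111. The libraries of the serum groups did not overlap in either genotype, the highest in 10% serum being at 0.55% and the lowest in 0.1% serum at 0.743%. The 40 genes together took 5.25% ± 0.949 and 5.51% ± 0.167 in wild-type cells and 5.04% ± 0.27 and 5.17% ± 1.23 in ΔLEO1 cells, differences within the spread between libraries. FN1 alone made up 1.25% to 3.87% of a library. The lowest sum, 4.16%, belonged to library 3 and the highest, 6.58%, to library 12.

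**Figure D2:**
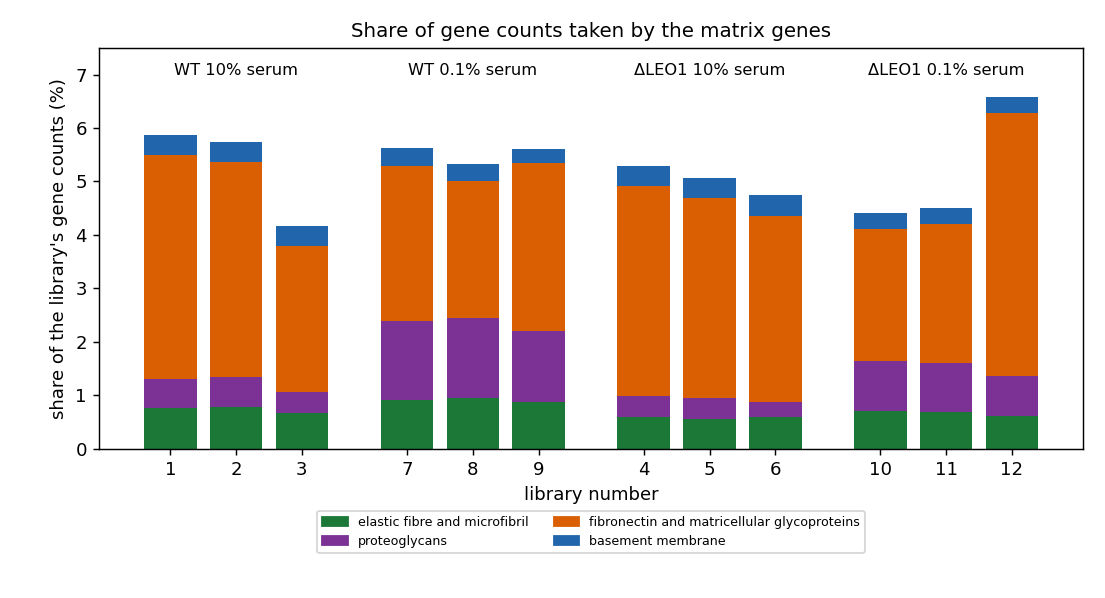
Share of each library's gene counts (y axis, %) taken by the 40 matrix genes, stacked by role, for the 12 libraries (x axis) in their 4 groups. The proteoglycan segment is thicker in 0.1% serum, with means of 1.43% (wild type) and 0.871% (ΔLEO1) against 0.493% and 0.356% in 10% serum, while the totals overlap.

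Fibronectin (FN1), the adhesive glycoprotein that integrins assemble into fibrils, had the highest count of the 40 genes. The ERCC-scaled counts of the wild type were 3480979, 2732547 and 870019 with serum feeding and 950933, 1054628 and 832072 with starvation. Those of ΔLEO1 libraries were 4068512, 2789011 and 2272336 and 827656, 502836 and 3511829. Library 3 lay with the low-serum libraries and library 12 with those in 10% serum, so that the groups overlapped in every comparison. FN1 was called lower in low serum in wild-type cells (log2 fold change −1.32 ± 0.42 SE, adjusted p = 0.0147), a call lost without library 1, 2, 7 or 9 (adjusted p up to 0.187), with TMM (adjusted p = 0.654) and with DESeq2 on ERCC size factors (adjusted p = 0.105). In ΔLEO1 cells the change was −0.91 ± 0.42 (adjusted p = 0.0625), and −2.19 (adjusted p = 6.14e-06) without library 12.

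SPARC, a collagen-binding matricellular protein, was lower in low serum in both genotypes. Wild-type libraries held 896793, 726184 and 325512 ERCC-scaled counts when serum-fed and 211870, 278990 and 223741 when serum-starved. The ΔLEO1 libraries held 1206792, 874502 and 697856 and 233756, 139725 and 404995, in the same order. The serum groups did not overlap, and the genotypes overlapped at each serum level. The log2 fold changes were −1.45 ± 0.44 (SE; adjusted p = 0.0101) in wild-type cells and −1.84 ± 0.44 (adjusted p = 0.00127) in ΔLEO1 cells. With TMM the wild-type change did not pass the test (−0.39, adjusted p = 0.11) and the ΔLEO1 change did (−0.74, adjusted p = 0.00932). On the ERCC scale the wild-type call was lost without library 1, 2, 7 or 9 (adjusted p up to 0.12).

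THBS1 and THBS2 encode thrombospondins, matricellular glycoproteins that inhibit blood vessel growth. THBS1 had 541220, 484180 and 555624 ERCC-scaled counts in serum-fed wild-type cells and 108918, 115130 and 52614 in serum-starved ones. The ΔLEO1 values of THBS1 were 367618, 252855 and 371521 serum-fed, and 126692, 70922 and 275172 serum-starved. The wild-type serum groups were far apart, whereas library 12 overlapped the ΔLEO1 libraries in 10% serum. THBS1 fell by 2.51 ± 0.46 (SE) on the log2 scale in wild-type cells (adjusted p = 3.62e-06) and by 1.07 ± 0.44 in ΔLEO1 cells (adjusted p = 0.046). THBS2 had 207853, 164254 and 77604 ERCC-scaled counts in serum-fed wild-type cells, and 30484, 36902 and 18389 in serum-starved ones. For ΔLEO1 cells THBS2 stood at 94193, 66827 and 72035 in 10% serum and at 26166, 14014 and 64284 in 0.1% serum. The serum groups of THBS2 did not overlap in either genotype. It fell by 2.39 ± 0.47 in wild-type cells (adjusted p = 2.41e-05) and by 1.16 ± 0.46 in ΔLEO1 cells (adjusted p = 0.0399). The ΔLEO1 calls were not kept in 9 (THBS1) and 7 (THBS2) of the 12 fits that left out 1 library (adjusted p up to 0.185 and 0.181), nor with TMM (adjusted p = 0.799 and 0.392). Without library 12 they were −1.74 and −1.95. Exons of FSIP1 and AC037198.2 on the opposite strand cover 859 bases of THBS1 exons, and the strand setting of the counting is not given in the sources used here.

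MGP fell in low serum and was lower in the clone than in wild-type cells. Serum-fed wild-type libraries gave ERCC-scaled counts of 19789, 16493 and 5149, and serum-starved ones 762, 1391 and 498. For the clone the counts were 934, 568 and 408 (serum-fed) and 69.7, 50.6 and 314 (serum-starved). No groups overlapped in any of the 4 comparisons. The serum change was −3.97 ± 0.54 (SE; adjusted p = 5.74e-11) in wild-type cells and −2.17 ± 0.51 (adjusted p = 8.96e-04) in ΔLEO1 cells, the latter −3.40 without library 12 and lost without library 10 (adjusted p = 0.0659). Against wild type, the ΔLEO1 level differed by −4.44 ± 0.55 in 10% serum (adjusted p = 1.53e-13) and by −2.64 ± 0.52 in 0.1% serum (adjusted p = 1.46e-05, and −3.88 without library 12). With TMM all 4 changes had the same sign and passed the test.

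POSTN, a matricellular protein of collagen-rich and injured tissue, was, of the 38 tested genes, the one furthest above its wild-type level in the clone at both serum levels. The ERCC-scaled counts of the wild type were 14499, 7996 and 399 with serum feeding and 6564, 5734 and 4112 with starvation. Those of ΔLEO1 libraries were 402099, 300468 and 190379 and 41428, 21626 and 78811. Every ΔLEO1 library exceeded every wild-type library, and library 3 stood far below the other wild-type libraries. The genotypes differed by 5.29 ± 0.54 (SE; adjusted p = 5.68e-20) in 10% serum, 6.15 without library 1, and by 3.11 ± 0.49 (adjusted p = 1.18e-08) in 0.1% serum, 2.36 without the highest-numbered libraries. These differences were 5.13 (adjusted p = 2.89e-04) and 2.80 (adjusted p = 0.00922) with TMM. Within ΔLEO1 cells POSTN fell by 2.65 ± 0.48 in low serum (adjusted p = 3.12e-06), by 3.24 without library 12, and with TMM the change of −1.60 did not pass the test (adjusted p = 0.0928). The sum of smooth muscle markers was also higher in ΔLEO1 than in wild-type libraries in each medium, with no overlap (953 to 2819 against 403 to 897 CPM, and 575 to 763 against 137 to 172 CPM), and its part in the POSTN difference was not tested. The POSTN promoter is shown for this difference, with an AP-1 motif (TGANTCA) and a pair of TATA box motifs (TATAAA on either strand) in capitals.
POSTN promoter, chr13:37598719-37599018, minus strand: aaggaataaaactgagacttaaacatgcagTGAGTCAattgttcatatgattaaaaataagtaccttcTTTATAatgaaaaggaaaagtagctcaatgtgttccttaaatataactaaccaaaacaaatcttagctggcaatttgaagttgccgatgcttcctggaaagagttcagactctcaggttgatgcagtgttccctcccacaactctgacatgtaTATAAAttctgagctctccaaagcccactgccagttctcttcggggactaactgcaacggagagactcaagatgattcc

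COMP, a cartilage and tendon glycoprotein of the thrombospondin family, was high in ΔLEO1 cells in low serum. Wild-type libraries held 691, 459 and 12.4 ERCC-scaled counts when serum-fed and 470, 814 and 321 when serum-starved. The ΔLEO1 libraries held 799, 414 and 26.1 and 1233, 922 and 6754, in the same order. Libraries 3 and 6 were far below their groups and library 12 far above its own, and the ΔLEO1 libraries in low serum lay above all others. The change with low serum in ΔLEO1 cells was 2.85 ± 0.54 (SE; adjusted p = 1.17e-05), and it was 1.40 (adjusted p = 0.00248) without library 12 and 3.74 without library 4. The call was lost with DESeq2 on ERCC size factors (adjusted p = 0.0526), and without the highest-numbered libraries the change was 0.84 (adjusted p = 0.0423). The difference from wild type in 0.1% serum was 2.47 ± 0.53 (adjusted p = 1.02e-04), and it was not called without library 12 (1.01, adjusted p = 0.152), with TMM (adjusted p = 0.0935), with DESeq2 on ERCC size factors (adjusted p = 0.387) or without the highest-numbered libraries (0.75, adjusted p = 0.222). The cartilage regulator SOX9, the only chondrocyte marker above 1 CPM, carried most of a marker sum of 7.82 to 9.87 CPM in these libraries. That sum was 3.74 to 5.32 CPM in ΔLEO1 cells in 10% serum, and 1.45 to 3.1 and 12.4 to 15.9 CPM in wild-type cells in 10% and 0.1% serum, and its part in the COMP values was not tested.

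TNXB (tenascin X), an adhesion glycoprotein of loose connective tissue, was higher in the clone. Its ERCC-scaled counts were 474, 402 and 257 in wild-type cells and 1982, 1602 and 1552 in ΔLEO1 cells, both in 10% serum. In 0.1% serum they were 499, 591 and 380 in wild-type cells and 783, 416 and 2423 in ΔLEO1 cells. On the ERCC scale the genotypes were apart in 10% serum and overlapped in 0.1% serum. The log2 fold changes were 2.18 ± 0.53 (SE; adjusted p = 8.62e-04) and 1.30 ± 0.51 (adjusted p = 0.133), the latter 1.71 (adjusted p = 0.0044) without library 11. In TMM CPM the 0.1% serum libraries had 10.4, 9.43 and 9.96 (wild type) and 15.2, 13.7 and 25.1 (ΔLEO1), without overlap. TNXB has a near-identical pseudogene copy, TNXA, and shares exon bases with ATF6B and, on the opposite strand, CYP21A2, so its counts are uncertain. TNC (tenascin C) passed no test on the ERCC scale. FNDC1 had 7 counts in all, from wild-type libraries 1 and 3, and none elsewhere.

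**Figure D3:**
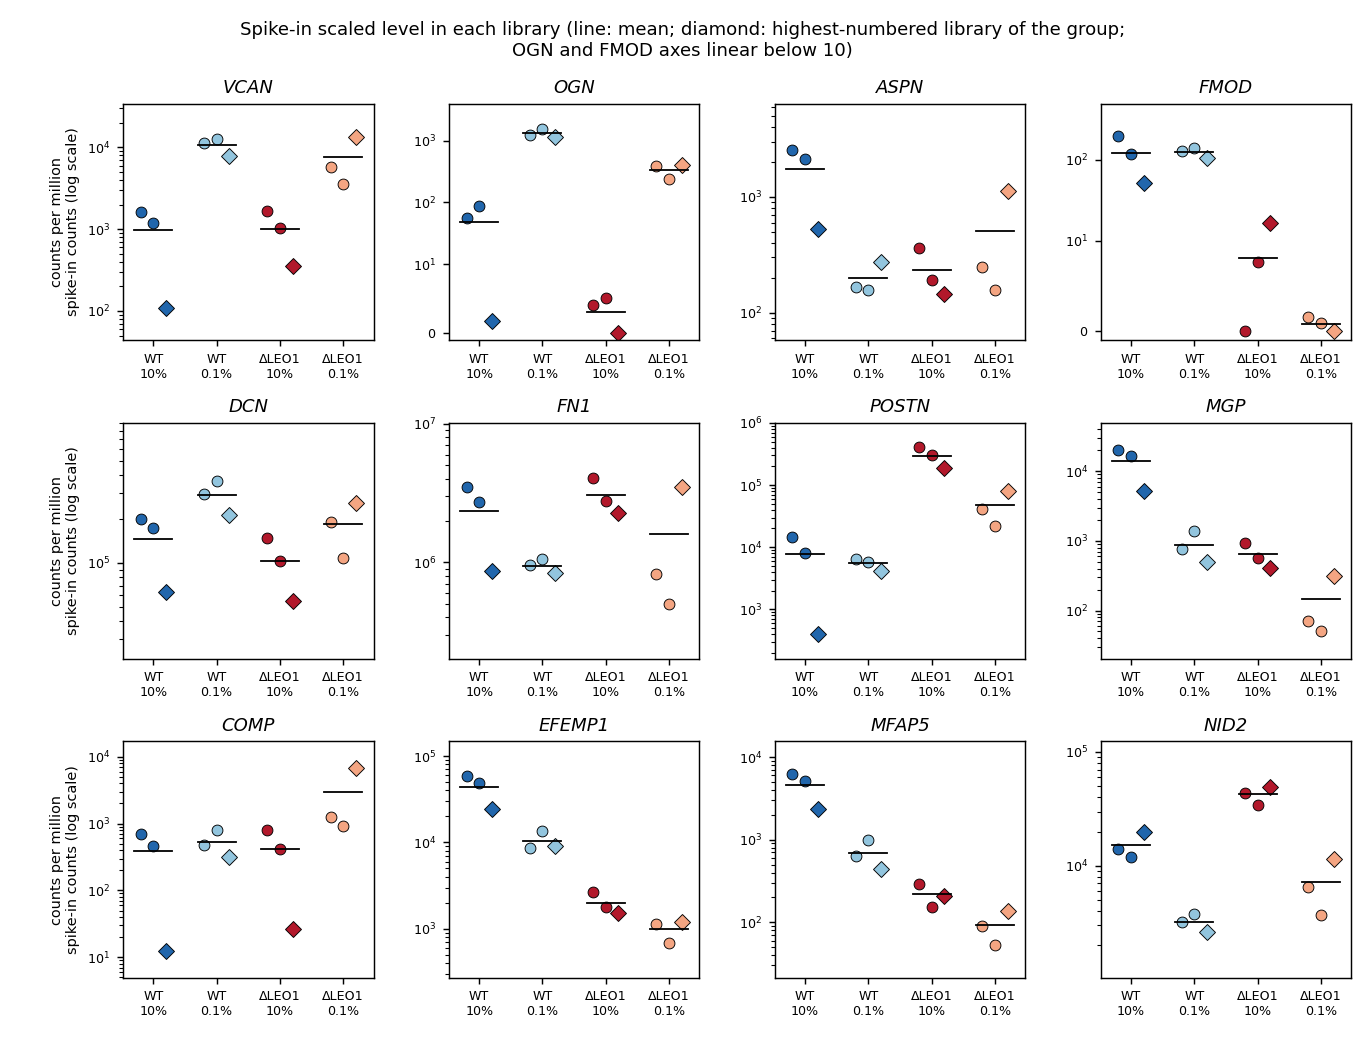
ERCC-scaled count (y axis, relative to spike-in counts, log scale) of 12 matrix genes in each library, by group (x axis), with a line at the group mean and a diamond for the highest-numbered library. POSTN is higher in all ΔLEO1 libraries than in all wild-type libraries, EFEMP1 and MFAP5 are lower in all of them, and VCAN and OGN are higher in all low-serum libraries than in all 10% serum libraries.

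The elastic-fibre genes called between the genotypes were all lower in the clone, on both scales. On the ERCC scale, 5 of the 15 tested were lower in the clone in 10% serum and none higher, and 4 were lower and none higher in 0.1% serum, where 4.20% and 3.41% of all genes were called lower. With TMM, 12 of 15 were lower in 10% serum and 11 of 15 in 0.1% serum, and none higher, with 21.4% and 17.3% of all genes called lower. The median log2 differences on that scale were −0.93 and −0.83.

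EFEMP1 (fibulin 3), a fibulin of fascia and vessel walls, showed one of the widest gaps. Serum-fed wild-type libraries gave ERCC-scaled counts of 58966, 48550 and 24485, and serum-starved ones 8654, 13380 and 9062. For the clone the counts were 2687, 1808 and 1519 (serum-fed) and 1143, 680 and 1190 (serum-starved). The genotypes did not overlap at either serum level. The difference was −4.46 ± 0.54 (SE; adjusted p = 3.15e-14) in 10% serum, a 22-fold lower level, and −3.37 ± 0.51 (adjusted p = 4.33e-09) in 0.1% serum, a 10.3-fold lower level. In wild-type cells EFEMP1 also fell by 2.09 ± 0.49 in low serum (adjusted p = 5.09e-04).

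MFAP5, a microfibril-associated glycoprotein, was also lower in the clone at both serum levels. The ERCC-scaled counts of the wild type were 6192, 5170 and 2383 with serum feeding and 634, 979 and 436 with starvation. Those of ΔLEO1 libraries were 294, 152 and 206 and 89.4, 53.4 and 136. No 2 groups compared overlapped. The genotype difference was −4.40 ± 0.57 (SE; adjusted p = 1.79e-12) in 10% serum and −2.89 ± 0.54 (adjusted p = 4.12e-06) in 0.1% serum, and the wild-type serum change was −2.75 ± 0.53 (adjusted p = 1.12e-05). The ΔLEO1 serum change of −1.24 ± 0.52 was called (adjusted p = 0.0492) but not in 10 of the 12 fits that left out 1 library (adjusted p up to 0.214), nor with TMM (−0.10, adjusted p = 0.769).

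ELN (elastin) and FBLN2 (fibulin 2) were lower in the clone by smaller amounts. ELN had 463, 408 and 79.7 ERCC-scaled counts in wild-type and 122, 111 and 54.6 in ΔLEO1 cells in 10% serum. Its values in 0.1% serum were 153, 276 and 74.6 in wild-type and 53, 45.1 and 111 in ΔLEO1 cells. Library 3 fell within the ΔLEO1 range, and in 0.1% serum the genotypes overlapped as well. The ELN difference was −1.73 ± 0.57 (SE; adjusted p = 0.0321) in 10% serum, lost without any of libraries 1, 2, 4, 5, 6 and 7 (adjusted p up to 0.269) and with DESeq2 on ERCC size factors (adjusted p = 0.0613), and −1.28 ± 0.56 (adjusted p = 0.216) in 0.1% serum, where it was −1.76 (adjusted p = 0.0103) without library 12. FBLN2, which binds fibronectin and fibrillin, had 49493, 42916 and 26455 ERCC-scaled counts in serum-fed wild-type cells, and 25780, 34401 and 20769 in serum-starved ones. The FBLN2 values of ΔLEO1 cells were 19692, 13634 and 15406 serum-fed, and 7775, 4270 and 11508 serum-starved. The genotypes did not overlap at either level. FBLN2 was called in 0.1% serum (−1.78 ± 0.48, adjusted p = 0.00423) but not without library 8 or 10 (adjusted p up to 0.0532), and in 10% serum its adjusted p was 0.0719. With TMM the difference was −1.61 (adjusted p = 1.00e-06) in 10% serum and −1.99 (adjusted p = 4.12e-07) in 0.1% serum.

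LTBP1 and MFAP4 made up the other calls in the clone. LTBP1, which holds latent TGF-beta in the matrix, had 20391, 17861 and 5622 ERCC-scaled counts in wild-type and 5937, 4449 and 3133 in ΔLEO1 cells in 10% serum. In 0.1% serum it had 10562, 13849 and 5901 in wild-type and 2487, 1381 and 5330 in ΔLEO1 cells. Library 3 lay below library 4, and in 0.1% serum the genotypes did not overlap. The difference was −1.70 ± 0.49 (SE; adjusted p = 0.00823) in 10% serum and −1.72 ± 0.49 (adjusted p = 0.00801) in 0.1% serum. The first of these calls was lost without library 1, 2, 5 or 6 and the second without library 7, 8 or 10 (adjusted p up to 0.13 and 0.121), and the second was −2.39 without library 12. MFAP4, a microfibril-associated glycoprotein, had 54945, 47746 and 15408 ERCC-scaled counts in wild-type and 22738, 13470 and 6938 in ΔLEO1 cells in 10% serum. Library 3 again fell within the ΔLEO1 range. The MFAP4 difference was −1.45 ± 0.47 (adjusted p = 0.0271), lost without library 1, 2, 5, 6 or 7 (adjusted p up to 0.325) and with DESeq2 on ERCC size factors (adjusted p = 0.0791). LTBP2, LTBP3, LTBP4, EFEMP2, MFAP2, FBLN5 and EMILIN1 were not called against wild type on the ERCC scale, and each was lower in the clone at 1 serum level or both with TMM.

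FBN1 and FBLN1 were not called between the genotypes on either scale, and FBN2 was not tested. FBN1 (fibrillin 1, the core of microfibrils) had 258353, 210280 and 105416 ERCC-scaled counts in wild-type and 286681, 204327 and 160865 in ΔLEO1 cells in 10% serum. In 0.1% serum FBN1 had 59239, 62167 and 34809 in wild-type and 39484, 25292 and 101084 in ΔLEO1 cells. The genotypes overlapped and the serum groups did not. FBN1 fell with low serum by 1.88 ± 0.46 (SE) in wild-type cells (adjusted p = 9.99e-04) and by 1.97 ± 0.46 in ΔLEO1 cells (adjusted p = 7.57e-04), by 2.75 without library 12, and it also fell with TMM (−0.87 and −0.98, adjusted p = 0.00229 and 0.00142). FBLN1 (fibulin 1) was called in no comparison on either scale. FBN2, below the limit for testing, had 0 counts in all 6 wild-type libraries, 10, 9 and 6 counts in ΔLEO1 cells in 10% serum and 5, 5 and 4 in 0.1% serum. Against a floor of 3 counts over the wild-type group, its ΔLEO1 level was 9.69-fold higher in 10% serum and 4.48-fold higher in 0.1% serum. These values leave out the counting error of the ΔLEO1 counts and any spread between libraries.

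LTBP4, which tethers latent TGF-beta and helps elastic fibres assemble, was the only elastic-fibre gene called higher in low serum on the ERCC scale. Wild-type libraries held 16238, 14099 and 6926 ERCC-scaled counts when serum-fed and 35146, 45204 and 24696 when serum-starved. The ΔLEO1 libraries held 13795, 9993 and 7401 and 23605, 12485 and 27448, in the same order. The wild-type groups did not overlap and the ΔLEO1 groups did. The level rose 2.82-fold (adjusted p = 0.0139) in wild-type cells, lost without library 2, 3, 7 or 8 (adjusted p up to 0.0796), and the log2 change was 1.03 ± 0.47 (SE; adjusted p = 0.0621) in ΔLEO1 cells, or 1.30 (adjusted p = 0.0357) without library 11. With TMM the log2 changes were 2.49 (adjusted p = 5.24e-06) in wild-type cells and 2.21 (adjusted p = 1.72e-05) in ΔLEO1 cells. LTBP4 was not alone on that scale, where 6 of 15 elastic-fibre genes were called higher in each genotype, against 15.5% of all genes. TMM called 3 of them lower in wild-type and 1 in ΔLEO1 cells, against 16.1% and 12.1% of all genes.

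Of the 6 basement membrane genes, 3 were lower with low serum in wild-type cells, where 27.0% of all genes were, and 4 in ΔLEO1 cells, where 36.4% were. Between the genotypes 1 was called, NID2, higher in the clone in 10% serum, where 3.81% of all genes were called higher. On the ERCC scale, NID2, LAMC1 and LAMA2 (laminin alpha 2) were lower in low serum in wild-type cells and, with NID1 (nidogen 1), in ΔLEO1 cells. Laminin gamma 1 (LAMC1), a chain of most laminins, had 242560, 202477 and 136479 ERCC-scaled counts in serum-fed wild-type cells and 57635, 66027 and 35300 in serum-starved ones. For ΔLEO1 cells LAMC1 stood at 320368, 237636 and 233662 in 10% serum and at 67499, 37176 and 126366 in 0.1% serum. The serum groups were apart and the genotypes overlapped. LAMC1 fell by 1.87 ± 0.46 (SE) in wild-type (adjusted p = 0.001) and by 1.78 ± 0.46 in ΔLEO1 cells (adjusted p = 0.0027), the latter lost without library 10 (adjusted p = 0.0583). LAMA2, a laminin chain of muscle and nerve sheaths, ranged from 34842 to 71761 ERCC-scaled counts in serum-fed wild-type cells and from 9583 to 21133 in 0.1% serum, and from 61378 to 88994 and 10874 to 35654 in ΔLEO1 cells. Its changes were −1.70 and −1.71 (adjusted p = 0.00409 and 0.0054). The wild-type call was lost without library 1 or without library 9, and the ΔLEO1 call without library 4 or without library 10 (adjusted p up to 0.0787 and 0.0869). NID1 ranged from 28109 to 49068 in ΔLEO1 cells in 10% serum and from 7564 to 16766 in 0.1% serum, and changed by −1.60 in ΔLEO1 cells (adjusted p = 0.0107), lost without library 4 or 10 (adjusted p up to 0.101) and with TMM (adjusted p = 0.0631). With TMM, LAMB1 and LAMA4, which were not called on the ERCC scale, were higher in low serum in both genotypes.

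Nidogen 2 (NID2), which links laminin to collagen IV, fell with low serum and was the basement membrane gene called higher in the clone. Serum-fed wild-type libraries gave ERCC-scaled counts of 14092, 12042 and 19967, and serum-starved ones 3206, 3809 and 2611. For the clone the counts were 44004, 34176 and 49421 (serum-fed) and 6532, 3688 and 11371 (serum-starved). The groups overlapped only between the genotypes in 0.1% serum. NID2 fell by 2.26 ± 0.49 (SE; adjusted p = 1.38e-04) in wild-type and by 2.56 ± 0.49 (adjusted p = 1.84e-05) in ΔLEO1 cells. The clone was higher by 1.47 ± 0.48 in 10% serum (adjusted p = 0.0282), lost without library 1, 2, 4, 5, 6 or 7 (adjusted p up to 0.26), and by 1.17 ± 0.47 in 0.1% serum (adjusted p = 0.154), or 1.48 (adjusted p = 0.00698) without library 11. Exons of RTRAF on the opposite strand cover 1915 bases (30%) of the NID2 exons. Because the strand setting of the counting is not given, the NID2 counts are uncertain.

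Over the whole list, ΔLEO1 against wild type in 10% serum gave 3 genes higher (POSTN, TNXB and NID2) and 9 lower (EFEMP1, MFAP5, MGP, ASPN, FMOD, OGN, LTBP1, MFAP4 and ELN), where 3.81% and 4.20% of all genes tested were called. The median was −0.48, against 0.35 over all genes tested. TMM gave 3 higher and 22 lower, with 17.9% and 21.4% of all genes called. In 0.1% serum 2 genes were higher (POSTN and COMP) and 7 lower (FMOD, EFEMP1, MFAP5, MGP, FBLN2, OGN and LTBP1), where 3.49% and 3.41% of all genes were called, with a median of −0.19 against 0.27. With TMM 2 were higher, COMP not among them, and 18 lower, with 15.1% and 17.3% of all genes called. Each genotype comparison shares its wild-type libraries with the wild-type serum comparison and its ΔLEO1 libraries with that of the clone, so these lists are not independent.

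The difference between the serum responses was tested as the interaction of genotype and serum. On the ERCC scale ASPN was called, with a response 4.24 ± 0.76 (SE) higher in ΔLEO1 cells (adjusted p = 1.22e-04), and no gene of the list was called lower. Of all genes tested, 0.113% were called higher and 0.0604% lower. An unadjusted p under 0.05 was reached by 7 of the 38 genes, and DESeq2 with spike-in size factors called 0 (ASPN 4.24, adjusted p = 0.0876). Without library 12 the ASPN value was 2.93 (adjusted p = 9.22e-04), and without the highest-numbered library of each group it was 3.42 (adjusted p = 1.71e-05). With TMM, 5 genes were called higher and none lower, with 1.55% and 0.453% of all genes called. These were ASPN (3.90, adjusted p = 0.0172), MFAP5 (1.67, adjusted p = 0.0146), EFEMP1 (1.31, adjusted p = 0.0424), THBS2 (1.17, adjusted p = 0.0381) and FBLN5 (1.06, adjusted p = 0.0146). FBLN5 (fibulin 5), which guides elastin onto microfibrils, had 453, 462 and 527 TMM CPM in serum-fed wild-type cells and 398, 438 and 565 in serum-starved ones. In ΔLEO1 cells FBLN5 had 191, 177 and 201 TMM CPM in 10% serum and 363, 380 and 411 in 0.1% serum. The interaction of POSTN was −2.17 ± 0.64 (adjusted p = 0.208), and it was −2.61 (adjusted p = 0.00979) without the highest-numbered libraries, −3.03 (adjusted p = 0.0225) without library 1 and −2.76 (adjusted p = 0.00146) without library 12. That of COMP was 2.38 ± 0.73 (adjusted p = 0.266), and it passed the test without library 3 (2.96), 4 (3.31) or 11 (2.81), with adjusted p-values of 0.0461, 0.0441 and 0.00405. Without the highest-numbered libraries it was 0.68 (adjusted p = 0.481).

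**Figure D4:**
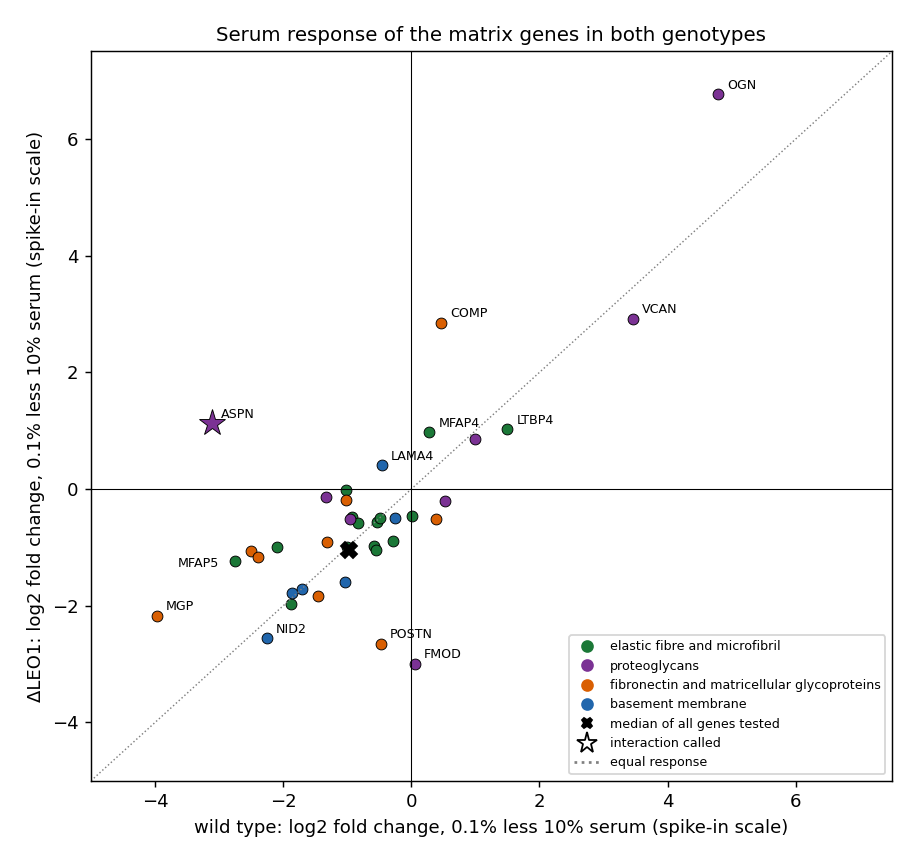
Log2 fold change with low serum on the ERCC scale in wild-type cells (x axis) and ΔLEO1 cells (y axis) for the 38 tested matrix genes, coloured by role. The dotted line marks equal responses, the cross the median of all genes tested and the star the gene called in the interaction. ASPN lies at −3.11 and 1.13, OGN at 4.79 and 6.77 and VCAN at 3.46 and 2.92.

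Levels of different genes were compared as CPM per kilobase of exon. SPARC (1291 ± 279, SD, n = 3) and FN1 (1273 ± 479) headed the list in serum-fed wild-type cells, and the order of this pair was within their spread. In 0.1% serum LUM came first (2162 ± 224), above FN1 (1157 ± 140) and SPARC (1045 ± 171), whose order was again within the spread. In ΔLEO1 cells SPARC (1501 ± 114) and FN1 (1371 ± 121) led in 10% serum. FN1 (1371 ± 750), LUM (1358 ± 222) and SPARC (936 ± 25.7) led in 0.1% serum, where the spread of FN1 came from library 12. POSTN stood at rank 29 in serum-fed wild-type cells (12 ± 10.1) and at rank 4 in ΔLEO1 cells (423 ± 79.8). OGN stood at rank 38 of 40 in serum-fed wild-type cells and at rank 30 in 0.1% serum.

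A further 80 matrix genes outside the list were examined, 48 of which were tested. In wild-type cells 3 were higher and 20 lower in low serum, the latter 41.7% of the list against 27.0% of all genes. In ΔLEO1 cells 2 were higher and 16 lower, and these 16 were 33.3% of the list, below the 36.4% of all genes called lower. Against wild type, the clone had 4 higher and 10 lower in 10% serum, where 3.81% and 4.20% of all genes were called. It had 2 higher and 5 lower in 0.1% serum, where 3.49% and 3.41% of all genes were called. The interaction was called for 2, both higher, with 0.113% of all genes called higher. DESeq2 with spike-in size factors called 0 of the 48 in the interaction, where 0.0604% of all genes were higher and 0.0756% lower. Without the highest-numbered libraries 1 was higher and 3 lower, where 0.108% and 0.349% of all genes were called. DPT (dermatopontin, a collagen-binding protein) was higher in low serum in wild-type cells by 3.63 ± 0.56 (SE; adjusted p = 1.80e-08), from 273, 247 and 72.6 to 2563, 3237 and 1484 ERCC-scaled counts. Exons of AL135926.1 on the same strand cover 976 bases (54.6%) of the DPT exons, so the DPT counts are uncertain. HMCN1 (hemicentin 1) was lower in low serum in both genotypes, by −2.89 ± 0.51 (adjusted p = 1.47e-06) and −4.02 ± 0.54 (adjusted p = 6.99e-11), the latter −3.40 without library 6 and −5.32 without library 12. Among the genes lower in the clone in 10% serum were SVEP1 (an adhesion protein; −3.11 ± 0.51, adjusted p = 6.30e-08) and SDC1 (syndecan 1, a cell surface proteoglycan; −2.70 ± 0.51, adjusted p = 5.18e-06), and AEBP1 was lower in 0.1% serum (−1.65 ± 0.47, adjusted p = 0.00949). The AEBP1 call was lost without library 7, 8 or 10 (adjusted p up to 0.126), and the value was −2.36 without the highest-numbered libraries.

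OMD (osteomodulin), a proteoglycan gene that lies between OGN and ASPN at 92414245 to 92424461 on chromosome 9, was one of the 2 interaction calls of this second list. The ERCC-scaled counts of the wild type were 138, 150 and 17.7 with serum feeding and 195, 292 and 385 with starvation. Those of ΔLEO1 libraries were 28.5, 7.71 and 7.12 and 245, 147 and 876. The serum groups did not overlap in either genotype. The change in ΔLEO1 cells was 4.97 ± 0.69 (SE; adjusted p = 2.80e-10) and the interaction 3.44 ± 0.86 (adjusted p = 0.0393). The ΔLEO1 change was 3.89 without library 12, 5.77 without library 4 and 3.56 (adjusted p = 1.45e-08) without the highest-numbered libraries. The interaction lost its call without library 1, 2, 5, 6, 7, 8, 9 or 12 (adjusted p up to 0.575), with TMM (adjusted p = 0.123) and with DESeq2 on ERCC size factors (adjusted p = 1.00). It was 2.35 without library 12, 4.26 without library 4 and 2.82 (adjusted p = 0.0356) without the highest-numbered libraries. The other interaction call was FRAS1, at 3.68 ± 0.75 (adjusted p = 0.00138) and, with TMM, 3.26 (adjusted p = 0.0377). FRAS1 had 117, 78.3 and 820 ERCC-scaled counts in serum-starved ΔLEO1 cells, the last in library 12.

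The 40 genes lie on 16 chromosomes and span 3799 to 633429 bases. Their median exon length was 6402 bases, against 5001 over the tested genes with an annotation. Among them 4 pairs lie within 1000 kb of each other, 3 of them pairs of small leucine-rich proteoglycan genes and the fourth EFEMP2 and LTBP3 (308 kb). In the RefSeq promoters 32 of the 40 genes were matched, with 41 windows of 300 bases (GRCh38.p14). The promoters of DCN, EFEMP1, ELN, EMILIN1, LUM, MFAP4, MFAP5 and MGP were not analysed here. Motifs were searched on both strands, each on its own. The TATA box TATAAA was found in 14.6% of the windows of the list, against 11.5% of all windows and 6.2% of those of tested genes. The TEAD motif GGAATG was found in 22% (against 14% and 11.6%), the GC box GGGCGG in 58.5% (against 45% and 65.9%), the SMAD motif CAGACA in 17.1% (against 16.9% and 13.4%), the AP-1 motif TGANTCA in 4.88% (against 7.71% and 5.23%) and the CArG box in 0 of 41 windows (against 1.29% and 1.11%). The median GC content was 67% in the windows of the list and 58.7% in all windows.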

How the data were processed

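RNA from 12 BJ-5ta libraries in 4 groups of 3 was analysed. The authors prepared stranded poly(A) libraries with ERCC spike-ins, and the deposited values are raw counts per gene and per spike-in transcript. The submitters' processing notes name bcl2fastq 2.20.0.422, STAR 2.7.10a and featureCounts 1.5.1, and the strand setting of the counting is not given in the sources used here. Gene identifiers were matched to symbols and positions with GENCODE release 29.

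Genes above 1 CPM in at least 3 libraries were tested with the quasi-likelihood F test of edgeR 4.0.16 (limma 3.58.1, R 4.3.3). A model of the 4 groups took ERCC totals, adjusted by TMM factors of the ERCC transcripts, as library sizes. The p-values were adjusted by the Benjamini-Hochberg method over 13236 genes. Tests were two-sided. TMM on the genes was the second scale, and DESeq2 1.42.0 and other filters were alternatives. Low counts were compared with exact 95% binomial intervals, and the floor for 0 counts was 3 counts over a group. The intervals cover counting error only, since reads without molecular identifiers are not independent molecules. Values against the floor leave out the counting error of the higher group. On simulated counts of the wild-type serum comparison (13236 genes) the test recovered 200 of 200 changed genes and called 9 unchanged ones. The simulated counts had less spread than these data on the ERCC scale, and only large changes in well-counted genes. These rates therefore do not carry over to the calls reported here. The common biological coefficient of variation was 39.8% on the ERCC scale and 16.6% with TMM. Groups came from the sample titles. The members and lists were chosen with earlier results of these data known. Named genes of the second list were the 5 with the smallest adjusted p per comparison among those called, of which some are given.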

Additional observations from a re-analysis of the deposited data

Results flagged for a closer look

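The response of ASPN to low serum differed between the genotypes by 4.24 on the log2 scale in the interaction test, a fall of 3.11 in wild-type cells against a change of 1.13 in ΔLEO1 cells that did not pass its own test. It was listed because the test of the difference passed the threshold. In wild-type cells 3 of 3 libraries in low serum were lower than every library in 10% serum. The value was 2.93 without library 12.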

How the results depend on the processing

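No paired analysis was possible because the libraries carry running numbers from 1 to 12 and the groups share none. Of 52 called changes of single genes, 32 kept their call in all 12 fits that left out 1 library and 20 lost it in at least 1. TMM on the genes kept 43 of the 52 and DESeq2 with ERCC size factors kept 45. Counts of called genes moved as follows. With TMM on the genes or with DESeq2 size factors on the genes, the wild-type serum comparison had 14 higher in place of 3, the ΔLEO1 serum comparison 16 higher in place of 3 and 6 lower in place of 12, the genotype comparisons 22 lower in place of 9 (10% serum) and 18 in place of 7 (0.1% serum), and the interaction 5 higher in place of 1. Without the highest-numbered library of each group, which earlier results of these data put apart, 20 were lower with low serum in wild-type and 26 in ΔLEO1 cells, 1 higher and 13 lower between genotypes in 0.1% serum, and 1 lower in the interaction. In that setting 63.4% and 92% of all genes were lower with low serum, above the members' 52.6% and 68.4%, and in 0.1% serum 2.26% of all genes were higher and 11.8% lower, and 0.349% were lower in the interaction. Called log2 changes with low serum in ΔLEO1 cells became −2.92 (FBN1), −2.35 (LAMA2), −2.41 (LAMC1), −3.65 (MGP), −3.48 (POSTN), −2.48 (SPARC), −2.0 (THBS2) and 5.97 (OGN), that of ASPN in wild-type cells −3.85, and genotype differences −4.98 (FMOD, 10% serum), −2.66 (LTBP1), −3.51 (MFAP5) and −4.17 (MGP, these last 3 in 0.1% serum). With TMM as well, an alternative chosen after seeing the data, the counts were 17 higher and 23 higher with low serum, 25 lower in 10% serum, 8 higher and 26 lower in 0.1% serum, and 15 higher and 7 lower in the interaction, where 27.1%, 28.3%, 31.9%, 30.4%, 29%, 15.7% and 8.66% of all genes were called, in that order. Fitting only the groups compared left 6 lower in the ΔLEO1 serum comparison and 4 lower between genotypes in 0.1% serum, with the calls of LAMA2, NID1, MFAP5, THBS1 and THBS2 (adjusted p from 0.0538 to 0.147) and of FBLN2, LTBP1 and OGN (adjusted p from 0.0608 to 0.105) lost. Alternatives of the second list's named genes were chosen after seeing the data. DESeq2 with ERCC size factors called 1 higher in 0.1% serum, where 3.68% of all genes were called higher. It called 0 in the interaction, where 0.0604% of all genes were called higher and 0.0756% lower. Leaving out 1 library gave 2 to 4 higher and 9 to 19 lower (wild-type serum), 3 to 6 and 4 to 24 (ΔLEO1 serum), 2 to 3 and 6 to 11 (10% serum), 1 to 7 and 4 to 9 (0.1% serum), and 1 to 2 and 0 to 1 (interaction). The shares of all genes called are not given for these fits or for those of only the groups compared. Their counts therefore cannot be set against the other genes. On the ERCC scale the uncalled change of ASPN in ΔLEO1 cells reversed to −0.43 without the highest-numbered libraries. Its values without 1 library ran from −0.18 (without library 12) to 1.58 (without library 4, adjusted p = 0.123). The cause of these shifts was not tested. OGN in ΔLEO1 cells in 10% serum and FMOD in ΔLEO1 cells rest on 10 counts or fewer per group, which limits their fold changes.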
